A study of Mus musculus with 18 samples.

Results

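DNA methylation across the Gnas imprinted cluster was described in 18 mouse samples profiled by reduced representation bisulfite sequencing (RRBS), which reads the CpG-rich fragments that the enzyme MspI cuts from the genome. The cluster was taken as every CpG read in an 85 kb window of chromosome 2 on build mm9 that spans the Nesp, Nespas, Gnasxl, exon 1A and Gnas promoters. It held 316 of the 1485218 CpGs read in the series. The window was chosen by the methylation levels of these samples, so the levels below are a description, and no test of them is given as support. There were 4 female and 2 male samples of embryonic stem cells (ESC), 4 female and 2 male samples of mouse embryonic fibroblasts (MEF), and 2 female samples each of induced pluripotent stem cells (iPSC) and of SSEA1+ and SSEA1− intermediates of reprogramming. SSEA1 is a cell surface glycan that appears on cells on the way to pluripotency. The labels give only cell type and sex. They name no strain, cell line, allele, culture medium, passage, reprogramming method or day. Whether replicates are independent cultures or animals is not stated either, so the p-values speak only of spread among the libraries at hand, part of which may be technical.

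Gnas encodes the stimulatory G protein alpha subunit, which couples hormone receptors to adenylyl cyclase. Its locus uses several promoters with different imprints. Nesp, which encodes a neuroendocrine secretory protein, is transcribed from the maternal copy and its promoter is methylated on the paternal copy in somatic tissue, a mark laid down after fertilisation. The promoter region shared by Nespas, an antisense noncoding RNA, and Gnasxl, which encodes the extra-large alpha subunit, is methylated on the maternal copy from the oocyte on, as is the promoter region of exon 1A, an untranslated first exon. The Gnas promoter itself is unmethylated on both copies. The reads used here were not assigned to parental copies.

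No mm9 annotation was used here, so promoters were set against the CpGs by the spacing of CpGs in RefSeq promoter sequences (build GRCm38.p6). RefSeq's table held 4 Gnas promoters among 32851 and none for Nespas. The Gnas promoter sequence of 300 bases fitted at 1 offset, where 21 of its 40 CpGs were read and no read CpG fell elsewhere in it. The next best offset, on the other strand, had 5, so the rule first set for placing a promoter, under which no other offset may reach 5, was not met. The placement was accepted by a rule chosen after seeing the data, at least 2 times as many CpGs as any other offset. It puts the Gnas start site at position 174155507 of chromosome 2 on mm9. The Nesp promoter matched only 3 read CpGs and was not placed by either rule, though that match lay 45686 bases before the Gnas start, the same distance as in RefSeq. Exon 1A could not be placed, and RefSeq puts its 2 entries 2257 and 2238 bases before the Gnas start.

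The bases just before the RefSeq start sites are shown for the promoters of exon 1A and Gnas, whose regions lie side by side and differed in level in MEF, and for Nesp, whose region was lower in pluripotent cells than in fibroblasts. The levels given below are those of regions, and no read CpG was assigned to the exon 1A and Nesp stretches shown. Each is 250 bases of the plus strand of GRCm38.p6, 5′ to 3′, with CpGs in capitals. They are chr2:174284070-174284319 for Nesp, chr2:174327499-174327748 for exon 1A and chr2:174329756-174330005 for Gnas.
Nesp: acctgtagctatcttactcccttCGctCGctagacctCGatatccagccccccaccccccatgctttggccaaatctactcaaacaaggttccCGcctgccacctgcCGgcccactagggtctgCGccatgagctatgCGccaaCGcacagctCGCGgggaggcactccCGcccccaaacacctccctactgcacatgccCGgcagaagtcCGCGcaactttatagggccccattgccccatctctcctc
exon 1A: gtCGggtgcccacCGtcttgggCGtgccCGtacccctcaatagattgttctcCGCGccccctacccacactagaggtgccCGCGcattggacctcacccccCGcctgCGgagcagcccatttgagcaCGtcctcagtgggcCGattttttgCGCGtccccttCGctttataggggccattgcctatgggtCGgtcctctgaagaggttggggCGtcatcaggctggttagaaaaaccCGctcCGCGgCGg
Gnas: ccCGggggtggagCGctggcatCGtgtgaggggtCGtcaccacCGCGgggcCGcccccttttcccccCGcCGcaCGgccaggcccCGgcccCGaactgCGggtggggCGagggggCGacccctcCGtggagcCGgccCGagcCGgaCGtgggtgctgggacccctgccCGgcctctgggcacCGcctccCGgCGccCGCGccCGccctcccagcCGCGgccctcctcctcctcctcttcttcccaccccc
The Gnas stretch held 29 CpGs and 80% G or C, and 20 of these CpGs were read on mm9. The exon 1A stretch held 21 CpGs and 63.2% G or C, and the Nesp stretch 14 CpGs and 61.6%. The methylated hexamer TGCCGC that ZFP57 binds, searched on both strands (GCGGCA on the other), had 0 matches in each of the 4 Gnas promoters of 300 bases. Of all 32851 promoters of that length only 3813 (11.6%) held it, so 0 among 4 shows no lack of it. The 2 exon 1A entries also start only 19 bases apart and are largely the same sequence. No promoter sequence of the Nespas-Gnasxl region was at hand, so that region was not searched.

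The read CpGs fell into 4 dense runs and several thin ones, and the runs were named by the known order of the promoters and their distance from the Gnas start. The Nesp region (174109678 to 174113316) held 47 CpGs, the Nespas-Gnasxl region (174120990 to 174126107) 92, the exon 1A region (174152432 to 174154482) 44 and the Gnas promoter region (174155161 to 174156456) 104. The first 3 names rest on that order and not on an annotation of mm9. A region's level is methylated reads over all reads, in percent, summed over the CpGs with at least 5 reads in that sample.

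Depth limits these values. The samples held 11424460 to 62920167 reads in all and 1510 to 12154 in the window, with the fewest in the window in male ESC 2, and 88 to 254 window CpGs reached 5 reads. Such totals here and below are sums of the read counts at CpGs, so 1 read counts once for each CpG it covers. The share of CpGs read on both strands split the libraries into 3 types. Type A (8 libraries) holds all ESC, female MEF 1 and male MEF 2, type B (6) the SSEA1 samples, female MEF 2 and male MEF 1, and type C (4) both iPSC and female MEF 3 and 4. Only MEF hold more than 1 type, so in comparisons of iPSC with ESC or with SSEA1 samples, and of SSEA1 samples with ESC, group and library type cannot be told apart. Samples of different types read partly different CpGs, so comparisons are also given over CpGs that both groups share. Female MEF 3 and 4 were closer to each other (r = 0.996 over tiles) than other female MEF pairs, with a mean chi-square of 1.28 per tile. Independent reads would give 1 from sampling noise alone, but tile totals can count 1 read at several CpGs. The value therefore cannot tell whether these 2 are separate samples, and they were kept as 2. The mean level over autosomal CpGs read in all samples was lowest in female ESC at 32.7 to 33.3%. It was 43.1 and 42.2% in iPSC, 49.5 and 49.7% in male ESC, 48.9 to 51.2% in the SSEA1 samples and 51.1 to 54.2% in MEF. These autosomal levels move with several of the differences below, and their part in them was not tested.

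In MEF the cluster had an intermediate level at all 3 imprinted regions and almost none at the Gnas promoter. The Nesp region stood at 40.5, 30.2, 46.7 and 38.5% in female MEF 1 to 4 and at 41.7 and 49.7% in male MEF 1 and 2. The Nespas-Gnasxl region stood at 45.2, 44.7, 48.3 and 45.9% in female MEF and at 41.8 and 49.7% in male MEF. The exon 1A region stood at 38.0, 42.8, 34.4 and 36.7% in female MEF and at 40.4 and 37.9% in male MEF. The sexes overlapped at all 3 regions. At the Gnas promoter region the 6 MEF samples lay between 0.0855 and 1.07%.

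**Figure D1:**
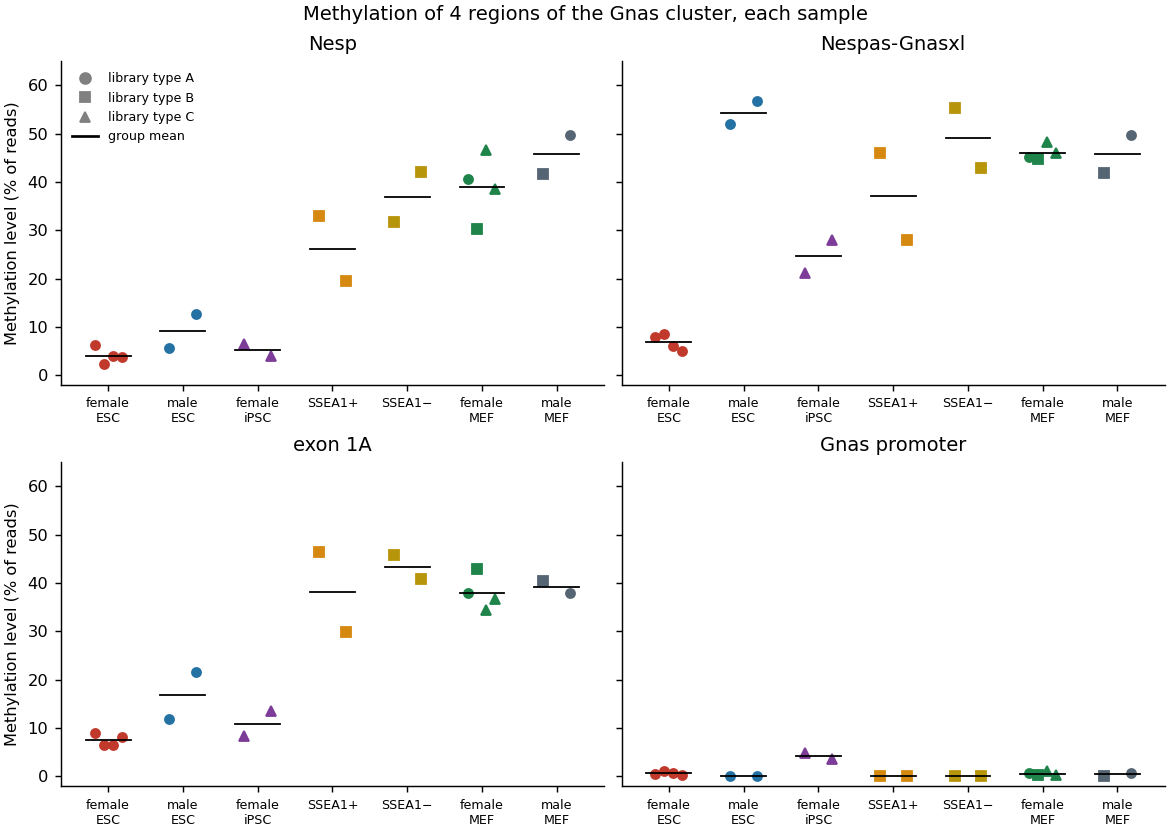
Methylation level (percent of reads) of the Nesp, Nespas-Gnasxl, exon 1A and Gnas promoter regions, 1 point per sample, with the group mean as a bar and the library type as the symbol. ESC and iPSC sit below all MEF at Nesp and exon 1A, while at Nespas-Gnasxl male ESC (52.0 and 56.7%) sit above MEF and female ESC (4.94 to 8.61%) near 0.

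Most CpGs of exon 1A had an intermediate level in MEF. Of its 34 CpGs with at least 20 reads in female MEF together, 33 lay between 30 and 70%, with a median of 41.3%. In male MEF 26 of 33 lay there, with a wider range of 21.7 to 76.2%. In the Nespas-Gnasxl region 49 of 59 such CpGs of female MEF lay in that range, and in the Nesp region 30 of 42. All 56 such CpGs of the Gnas promoter region in female MEF were under 10%. The change from exon 1A to the Gnas promoter fell in a stretch of 679 bases without a read CpG. The last exon 1A CpG (174154482), at −1025 bases from the Gnas start, had 17 of 40 MEF reads methylated (42.5%). The first CpG of the promoter region with 20 MEF reads (174155161), at −346 bases, had 3 of 23 (13.04%), and this was the highest of the 104 CpGs there.

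**Figure D2:**
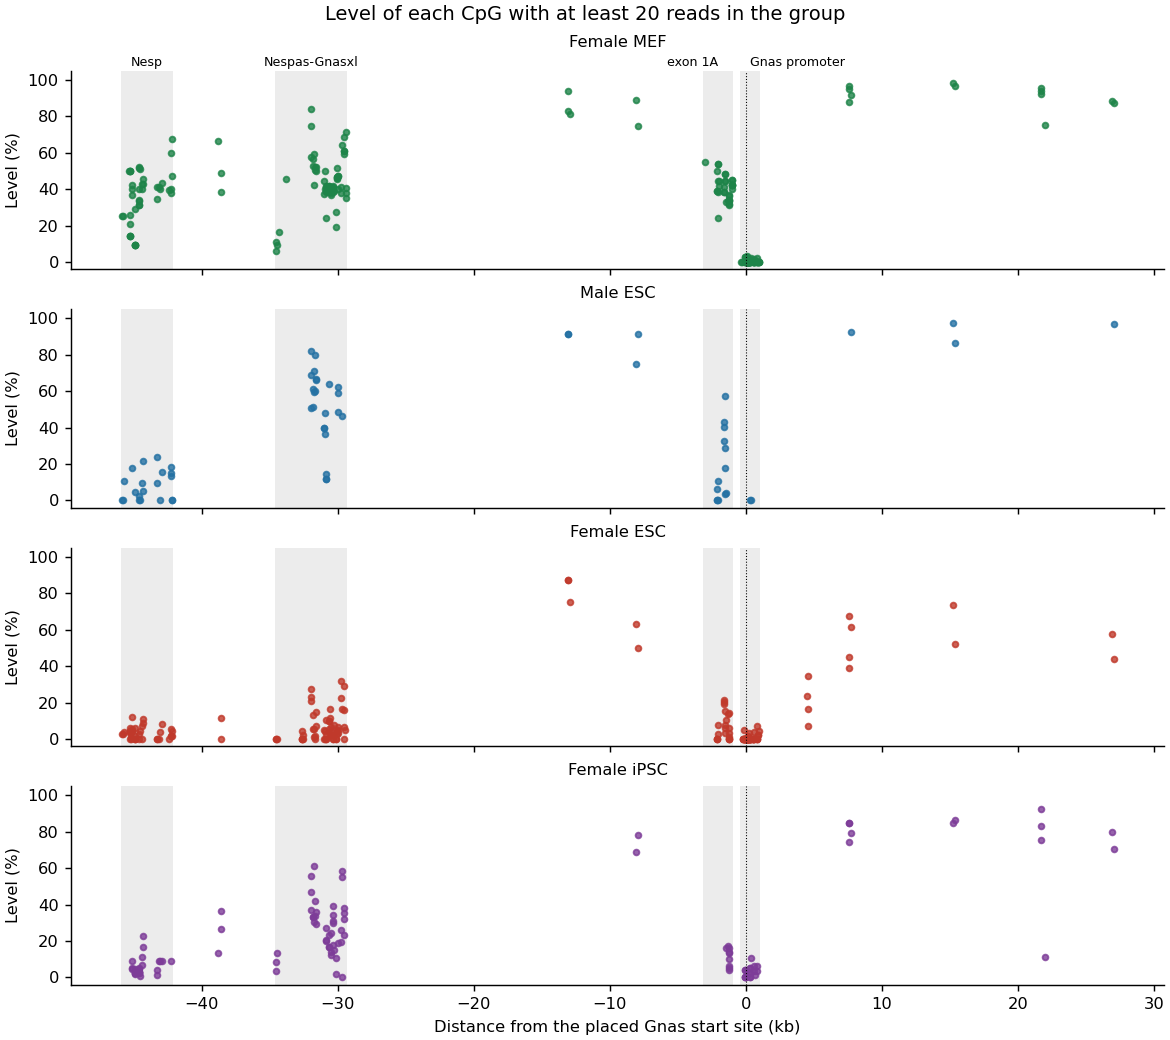
Level (percent) of each CpG with at least 20 reads in the group against its distance in kb from the placed Gnas start site, in female MEF, male ESC, female ESC and female iPSC, with the 4 regions shaded. In female MEF 33 of 34 exon 1A CpGs lie between 30 and 70% and all 56 Gnas promoter CpGs under 10%.

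Nesp had a low level in all 3 kinds of pluripotent cell. Female ESC had 6.35, 2.26, 3.89 and 3.71% (mean 4.05 ± 1.69, SD, n = 4), male ESC 5.62 and 12.7% (9.14 ± 4.98, SD, n = 2) and iPSC 6.42 and 4.01% (5.22 ± 1.71, SD, n = 2). These 3 groups overlapped, and every one of their samples lay below every SSEA1 and MEF sample, the lowest of which was SSEA1+ 2 at 19.4%. Over CpGs that both groups share, the difference was −34.5 points for female ESC minus female MEF (6 CpGs), −40.9 for male ESC minus male MEF (11 CpGs) and −28.7 for iPSC minus female MEF (6 CpGs). Within type C, iPSC minus female MEF 3 and 4 was −29.7 points over 26 CpGs. The iPSC level depended on the CpGs read, with 13.2% over the 6 CpGs shared with all female MEF and 6.38% over these 26.

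The Nespas-Gnasxl region separated male from female ESC. Female ESC had 7.89, 8.61, 6.09 and 4.94% (6.88 ± 1.67, SD, n = 4), and male ESC had 52.0 and 56.7% (54.3 ± 3.35, SD, n = 2). All 6 ESC libraries are of type A, and over the 20 CpGs they share the difference, female minus male, was −45.9 points. Of the 7 CpGs of the region with 5 reads in all samples, 6 had every male ESC above every female ESC. The most deeply read of them in male ESC (174123667) is given in reads. It was methylated in 7 of 42, 5 of 38, 2 of 40 and 6 of 32 reads in female ESC and in 51 of 92 and 32 of 44 in male ESC. The exception (174124643) had 5 of 26 and 0 of 9 reads methylated in male ESC and 5 of 22, 0 of 16, 2 of 21 and 0 of 9 in female ESC. In MEF the CpG at 174123667 had 17 of 38, 13 of 22, 48 of 82 and 60 of 101 reads methylated in females and 31 of 56 and 12 of 25 in males. Male ESC were also above male MEF, by 11.1 points over 24 shared CpGs, but against the male MEF library of type A alone the gap was 2.25 points over 26 CpGs.

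Male ESC did not carry a MEF level at the other maternally methylated region. Exon 1A stood at 11.8 and 21.6% in male ESC 1 and 2, beside 52.0 and 56.7% at Nespas-Gnasxl in the same samples. Over 8 shared CpGs of exon 1A, male ESC minus male MEF was −24.9 points, and −18.8 against the type A male MEF library. Female ESC had 9.05, 6.42, 6.48 and 8.06% at exon 1A (7.502 ± 1.28, SD, n = 4), below both male ESC, and the gap over the 8 CpGs shared by ESC was −7.67 points. Within exon 1A the male ESC level was uneven. Of the 13 CpGs with at least 20 reads in both male ESC together, the 3 at 174153351 to 174153376 had 0 of 54, 3 of 49 and 0 of 49 reads methylated. The 3 at 174153898 to 174153912 had 16, 15 and 12 of 37, and the 13 ranged from 0 to 57.1%.

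**Figure D3:**
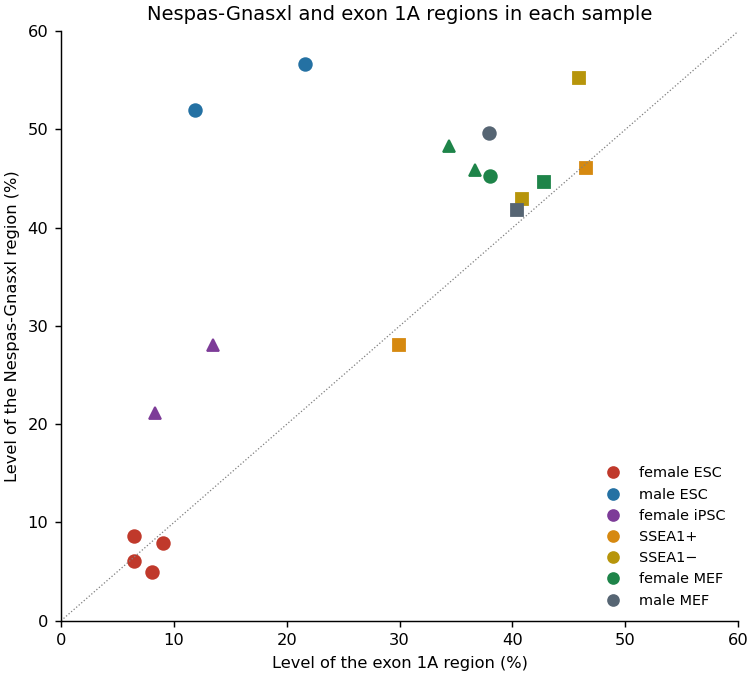
Level of the Nespas-Gnasxl region against that of the exon 1A region (percent), 1 point per sample, with circles, squares and triangles for library types A, B and C and the dotted line marking equal levels. MEF and SSEA1 samples lie near or above the line at 28.1% or more on both axes, female ESC near the origin, and male ESC and iPSC above the line.

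iPSC held an in-between level at Nespas-Gnasxl and a low one at exon 1A. Nespas-Gnasxl stood at 21.2 and 28.0% in iPSC 1 and 2 (24.6 ± 4.84, SD, n = 2), above all female ESC and below all MEF, with SSEA1+ 2 just above at 28.1%. Over shared CpGs iPSC were 23.4 points above female ESC (27 CpGs) and 23.9 points below male ESC, a difference of −23.9 (20 CpGs). Against female MEF 3 and 4, of the same library type, iPSC differed by −17.5 points over 40 CpGs. Exon 1A stood at 8.34 and 13.4% in iPSC, overlapping both sexes of ESC by region level, but iPSC and male ESC shared only 1 CpG there. In the 1 kb tile starting at 174153001 iPSC stood at 0 and 11.5%, with only 18 to 26 reads, and male ESC at 14.0 and 21.6%. In the tile at 174154001 iPSC stood at 8.51 and 13.5%, and the 1 male ESC sample read there at 3.70%. Over the 6 CpGs shared with female ESC, iPSC had 10.5 and female ESC 5.98%, a difference of 4.55 points without overlap, between libraries of different types. Within type C, iPSC minus female MEF was −29.1 points (16 CpGs).

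SSEA1− samples and SSEA1+ 1 had intermediate levels like MEF, while SSEA1+ 2 lay below every MEF sample at all 3 imprinted regions. SSEA1− 1 and 2 stood at 31.6 and 42.0% at Nesp, 55.2 and 42.9% at Nespas-Gnasxl and 45.9 and 40.9% at exon 1A. SSEA1+ 1 and 2 stood at 32.9 and 19.4%, 46.0 and 28.1%, and 46.5 and 29.95% at the same regions. By region level the ranges of SSEA1+ and SSEA1− overlapped at Nesp, Nespas-Gnasxl and exon 1A, and at each of these SSEA1+ 2 was the lowest SSEA1 sample. SSEA1+ 2 was also the shallowest of the 4, with 2066 window reads. Over shared CpGs, SSEA1+ minus SSEA1− was −16.2 points at Nesp (24 CpGs) and −10.8 at Nespas-Gnasxl (42 CpGs), where the samples did not overlap, and −12.4 at exon 1A (17 CpGs), where they did. Against female MEF 2, the female MEF library of the same type, SSEA1+ differed by −12.6 points at Nesp (17 CpGs) and −9.07 at Nespas-Gnasxl (47 CpGs), with both samples lower, and by −2.49 at exon 1A (17 CpGs), with overlap. SSEA1− differed from it by 2.22, 3.33 and 0.0650 points at the 3 regions (22, 60 and 21 CpGs), all with overlap.

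The Gnas promoter region was close to unmethylated in every group, with the highest values in iPSC. iPSC 1 and 2 stood at 4.76 and 3.50%, and the 16 other samples at 0 to 1.07%. Both iPSC libraries are of type C, and over the 24 CpGs that they share with female MEF 3 and 4 the difference was 2.93 points. In male ESC 0 of 233 and 0 of 188 reads were methylated, which allows levels of up to 1.29 and 1.60%. In SSEA1+ 0 of 1479 and 0 of 694 reads were, which allows up to 0.203 and 0.432%. These limits, 3 reads of the total, cover counting error only and are too narrow. Reads without molecular identifiers are not independent molecules, and 1 read counts at each CpG it covers.

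After the Gnas promoter and between Gnasxl and exon 1A most reads were methylated. After the Gnas promoter the mean level was 91.1% ± 2.63 (SD, n = 4) in female MEF, 79.97 ± 2.61 in male MEF (SD, n = 2), 83.0 ± 14.4 in male ESC (SD, n = 2) and 78.8 ± 1.65 in iPSC (SD, n = 2). Female ESC stood apart at 46.3 ± 4.34% (SD, n = 4). Between Gnasxl and exon 1A female ESC had 69.2% and the other groups 73.9 to 89.6%. These stretches rest on 16 and 5 CpGs.

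The same levels can be followed in the tiles that were tested. Of the 85 tiles of 1 kb, 26 held a read CpG, and 7 had at least 3 CpGs with 5 reads in every sample. A tile was called in a fit over all 33545 such tiles of the genome at an adjusted p under 0.05 (Benjamini-Hochberg) and a difference of at least 20 points. The Nesp tile starting at 174110001 stood at 3.32% in female ESC, 2.86 in male ESC, 4.08 in iPSC, 22.6 in SSEA1+, 35.8 in SSEA1−, 37.2 in female MEF and 48.0 in male MEF. The Nesp tile at 174111001 stood at 9.16, 13.95, 15.4, 35.1, 24.8, 39.4 and 46.8% in the same order. In both, the means of all 3 pluripotent groups thus lay below those of the other 4. Samples overlapped at 174111001, where female iPSC 1 (23.1%) and male ESC 2 (20.3%) lay above SSEA1+ 2 (18.2%). The Nespas-Gnasxl tile at 174123001 stood, in that order, at 10.1, 63.9, 40.5, 48.5, 62.0, 57.1 and 56.8%. The tile at 174124001 stood at 5.15, 38.5, 20.7, 32.7, 47.1, 39.4 and 47.1%, and the tile at 174125001 at 7.18, 54.2, 24.7, 32.6, 47.4, 45.6 and 39.2%. By group mean, each of the 3 had female ESC lowest, iPSC next and SSEA1+ after them, though iPSC and SSEA1+ samples overlapped at 174125001. The 2 tiles of the Gnas promoter, at 174155001 and 174156001, had iPSC highest, at 3.60 and 4.26%, with 0 to 0.653% and 0 to 1.64% in the other groups.

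These calls follow the levels by which the cluster was picked, and nothing is read from them. Female ESC were lower than male ESC in 3 of 7 tiles, all in Nespas-Gnasxl, where 26.8% of all tiles were called lower. Female ESC were lower than female MEF in 5 of 7, beside 37.5% of all tiles, and male ESC lower than male MEF in 2 of 7, both in Nesp, beside 18.9%. Without male ESC 1 neither of those 2 was called. iPSC were lower than female MEF in 3 of 7, beside 23% of all tiles, and lower than male ESC in 2 of 7, beside 9.16% (1 of 7 without male ESC 1). iPSC were higher than female ESC in 1 of 7, the tile at 174123001, beside 11.2% (2 of 7 without iPSC 1). The median difference of the 7 tiles was −33.9 points for female ESC minus female MEF, against −9.92 over all tiles, and −4.79 for female minus male ESC, against −4.56. The sex difference in ESC minus that in MEF, an interaction term of the fit, passed in the 3 Nespas-Gnasxl tiles of the 7, beside 18% of all tiles.

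In the other 5 comparisons no tile of the cluster was called by the quasi-binomial fit or by limma. For female against male MEF 1.69% of all tiles were called in either direction, for SSEA1− against female MEF 2.01%, for SSEA1+ against female MEF 2.76%, for SSEA1+ against SSEA1− 1.31% and for iPSC against SSEA1+ 23.8%. At an unadjusted p under 0.05 these comparisons had 1, 2, 2, 1 and 6 of the 7 tiles in the quasi-binomial fit. iPSC against SSEA1+ had 1 tile called when iPSC 1 or SSEA1+ 2 was left out.

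Exon 1A had no tile read deeply enough in every sample, so its tiles enter only a fit, added after seeing the data, of 67239 tiles that drops samples with too few CpGs. It held 10 tiles of the cluster. In that fit the tile at 174153001 was called lower in female ESC than in female MEF (8.10 against 39.7%, 4 and 2 samples) and the tile at 174154001 likewise (6.31 against 38.8%, 4 and 4 samples), beside 48.8% of all tiles. iPSC were called lower than female MEF in both tiles (5.77 against 39.7% and 11.0 against 38.8%), beside 25.8%, and lower than SSEA1+ at 174153001 (5.77 against 47.6%, 2 and 2 samples), beside 20.7%. Male ESC were called lower than male MEF at 174154001 (3.70 against 51.6%, 1 and 2 samples), beside 16%. That call has no spread of male ESC behind it, since the only sample, male ESC 1, is assumed to vary like the other groups. The same comparison was not called at 174153001 (17.8 against 33.0%, 2 and 2 samples). Female against male ESC was called at neither tile. The third added tile, at 174163001 after the Gnas promoter, was called lower in female than in male ESC (53.0 against 93.0%, 3 and 1 samples), again with male ESC 1 alone in its group. With it 4 of 10 tiles were called, beside 40.1%, and 3 of them have both male ESC samples. It was higher in iPSC than in female ESC (80.2 against 53.0%, 2 and 3 samples), which made 2 of 10 beside 15.9%. iPSC were lower than male ESC in 2 of 10, beside 12.4%.

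Neighbouring CpGs were more alike in the cluster than on average over the rest of the autosomes in MEF. The measure, added after seeing the data, was the difference in level between neighbouring CpGs of 1 strand, up to 40 bases apart. Pairs had equal totals of at least 10 reads and a pair level of 20 to 80%. The last filter acts on the levels by which the window was picked. In MEF the mean difference was 4.16 to 8.04 points over 36 to 82 pairs of the cluster and 21.9 to 28.4 points over the rest of the autosomes. The cluster was lower in 6 of 6 MEF samples, by a mean difference of −18.2 ± 2.06 points (SD, n = 6, exact 2-sided sign-flip permutation test, p = 0.03125, also after adjustment over 2 tests, the smallest that 6 samples allow). With the SSEA1 samples added it was lower in 10 of 10, by −17.7 ± 3.22 points (SD, n = 10, same permutation test, p = 0.001953125, adjusted p = 0.00390625, the smallest they allow). Leaving out any 1 MEF sample, or female MEF 3 and 4, ends the MEF call, since fewer samples cannot reach 0.05. These p-values concern the spread among libraries at 1 fixed locus. They come from a measure added after seeing the data and filtered on the levels by which the window was picked. They therefore describe these libraries and are no independent support. Whether other loci lie as far below the autosomal mean was not tested.

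In pluripotent cells fewer pairs were in range than in MEF, and in male ESC and iPSC most of them lay in Nespas-Gnasxl. The mean difference was 16.0 and 13.3 points in male ESC (20 and 17 pairs), against 18.4 and 19.9 over the rest of the autosomes, and 15.03 and 10.8 points in iPSC (20 and 22 pairs), against 14.5 in both. Female ESC had only 1 to 6 pairs in range. Over the 13 Nespas-Gnasxl pairs shared within type C, iPSC had 13.2 and 8.24 points and female MEF 3 and 4 had 6.65 and 8.24, which overlap. The difference between MEF and pluripotent cells in this measure was not tested.

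**Figure D4:**
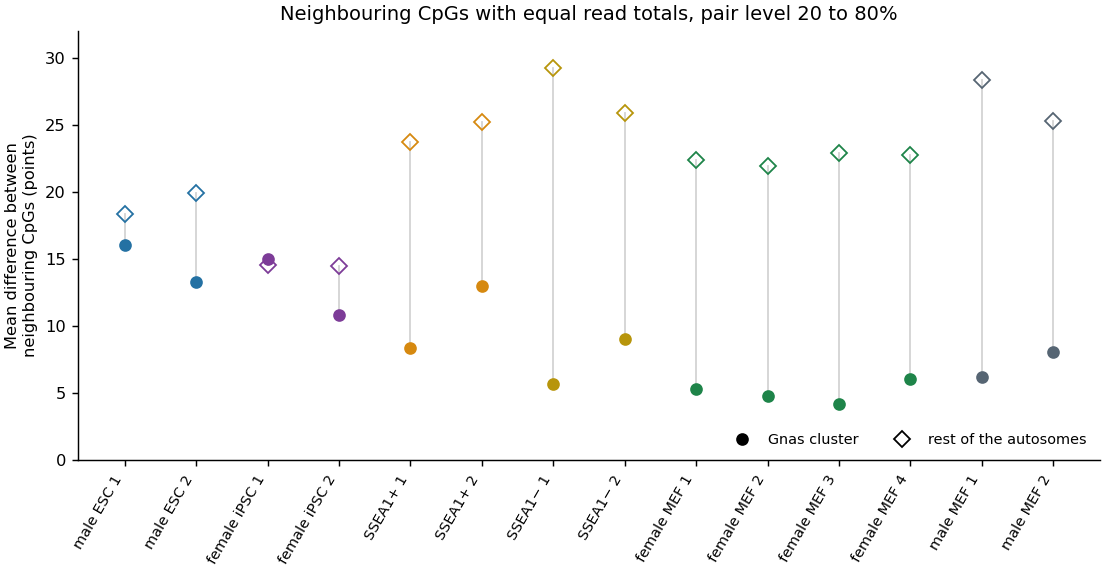
Mean difference in level (points) between neighbouring CpGs with equal read totals, for the Gnas cluster (filled) and the rest of the autosomes (open), in the 14 samples other than female ESC. The cluster lies at 4.16 to 8.04 points in MEF and 10.8 to 16.0 points in male ESC and iPSC.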

How the data were processed

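RRBS counts of 18 samples in 7 groups were used. For every strand of a CpG the deposited tables give counts of total and of methylated reads. They also hold the authors' score, the ratio of the 2 times 1000, which was not used. The build is mm9, per the submitters' processing notes; which aligner, caller or filters made them is not given in the sources used here. Positions are counted from 1. The window, regions and lists were chosen with earlier results of these data known. Strands were added, and a CpG counted at 5 reads.

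Tiles of 1 kb with at least 3 such CpGs in every sample (33545) were fitted by quasi-binomial logistic regression on the 7 groups in all 18 samples, dispersion moderated by limma's squeezeVar and at least 1, F tests and Benjamini-Hochberg adjustment. Every tested tile of the window is given in every group. On simulated counts, 44% of changes of 25 points and 88% of 40 points were recovered for female against male ESC, with 3 false calls, and 67 and 96%, with 1, for female ESC against female MEF. Only 1 run of at least 5 CpGs read in all samples existed, so regions were defined after seeing the data. Alternatives changed the read minimum, tile filter, test, weights and library type, and left out each sample. The tools were R 4.3.3, limma 3.58.1, Python 3.11.15, scipy 1.17.1, numpy 2.4.6, matplotlib 3.10.9 and pandas 2.3.3.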

Additional observations from a re-analysis of the deposited data

Results flagged for a closer look

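The sex difference (female minus male) differed between ESC and MEF in 3 Nespas-Gnasxl tiles, by an interaction term in the quasi-binomial fit. The difference in ESC minus that in MEF was −54.1 points in the tile starting at 174123001 (adjusted p = 1.40e-05), −25.7 points at 174124001 (adjusted p = 0.00178) and −53.4 points at 174125001 (adjusted p = 0.000124). The window was picked with these levels in view, and of all 33545 tiles 18% passed the same test. When each of the 12 ESC and MEF samples was left out in turn, the adjusted p of the interaction term reached at most 0.000946, 0.0424 and 0.00683 in these tiles. These values come from the levels by which the window was picked, so they describe the tiles and are no independent support.

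In groups of 4, 28 sets of levels were examined, of tiles, regions and the run of CpGs read in all samples. In 4 of them, all tiles, 1 sample lay far from the other 3 relative to the range of the 4, which can be small in points. Chance gives about 1 in 20 for independent sets, but these sets share reads. Female MEF 2 was low at the Nesp tile starting at 174111001, at 28.9%, and female MEF 1 was low at the Nespas-Gnasxl tile at 174123001, at 48.7%. At the Gnas promoter tile at 174155001 female MEF 3 was high at 1.74%, and female ESC 3 had 0 methylated of 687 reads, a level of 0% that allows up to 0.437%. The other female ESC reached at most 0.313% there, under that limit, so female ESC 3 cannot be told apart from them.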

How the results depend on the processing

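Of 148 counts of called tiles under alternatives, 128 stayed within 1.5 times and 20 moved by more. With a minimum of 10 reads, female ESC against female MEF had 2 tiles called, male ESC against male MEF 0, and iPSC against female MEF and against male ESC 1 each. With only CpGs read in all samples, the counts were 2 for female ESC against female MEF and 1 each for female against male ESC, male ESC against male MEF, and iPSC against female MEF and male ESC; fewer tiles were tested in both settings. iPSC against male ESC had 1 tile with limma and 1 with library type as a term. With tiles read in at least 1 sample of every group, added after seeing the data, the counts were 8 for female ESC against female MEF, 5 for iPSC against female MEF, 2 against female ESC and 1 against SSEA1+. Leaving out 1 sample gave 0 to 3 for male ESC against male MEF (0 without male ESC 1), 2 to 4 for iPSC against female MEF, 1 to 2 against female ESC (2 without iPSC 1), 1 to 2 against male ESC (1 without male ESC 1), 0 to 1 against SSEA1+, 5 for female ESC against female MEF, 3 for female against male ESC and 0 elsewhere. With a replicate block no count moved by over 1.5 times (3 for female against male ESC); same-numbered samples correlated at −0.270 to 0.0460 in their deviations, so the numbers were not taken to pair samples.

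The 7 CpGs of Nespas-Gnasxl read in all samples averaged 8.80% in female ESC, 53.9 in male ESC, 32.4 in iPSC, 44.7 in SSEA1+, 55.8 in SSEA1−, 49.6 in female MEF and 56.1 in male MEF. Weighted by reads, male ESC had 58.8% and iPSC 28.2%. With each sample's own CpGs, iPSC had 27.9, SSEA1+ 37.3, SSEA1− 50.8, female MEF 44.2 and male MEF 47.7%. At 3 reads, male ESC had 65.1, iPSC 29.4, SSEA1+ 40.7, female MEF 45.1 and male MEF 48.9%; at 10 reads no such run was left. Of 112 region levels under alternatives, 100 moved by less than 1 SD. Most groups hold 2 samples, so that SD can be wide and a large move can stay within it. Over the settings the SSEA1+ mean ranged from 33.0 to 49.0% at exon 1A (38.2% in the main setting). At Nesp it ranged from 22.4 to 31.5% (26.2% in the main setting). The neighbour difference was −18.5 to −17.4 points in MEF (p = 0.0625) and −18.3 to −17.1 with SSEA1 samples when 1 sample was left out, and −18.4 (p = 0.125) in MEF without female MEF 3 and 4, p-values from exact permutation tests; fewer samples cannot reach a lower p. Of the 4 dense regions exon 1A had the fewest CpGs and reads in its shallowest sample, with 8 to 33 CpGs and 162 to 1735 reads over samples.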

Other observations

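Over all samples with any CpG of at least 5 reads, the tile starting at 174163001, after the Gnas promoter, stood at 54.8% ± 4.09 (SD, n = 4) in female ESC, 96.5 ± 4.96 in male ESC (SD, n = 2) and 93.3 ± 2.99 in female MEF (SD, n = 4). iPSC stood at 80.2% ± 4.63 (SD, n = 2) there, between the female ESC and female MEF samples.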
